A study of Mus musculus with 6 samples.

Results

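The genes described here were 51 genes of autophagy and of the lysosome, taken by symbol from a table of 25067 gene rows measured in mouse colonic organoids. They were 27 autophagy genes, 21 lysosomal genes and the 3 genes of the TFEB family, and each symbol matched 1 row. The organoids were Prkci f/f and Prkcz f/f, carried Villin-CreERT2 on a C57BL/6 background, came from mice aged 8 weeks, and had been given either 4-hydroxytamoxifen (4-OHT) or ethanol as vehicle for 3 days from passage, with 3 RNA-seq libraries in each group. Prkci and Prkcz encode the atypical protein kinases C, and Villin-CreERT2 is a Cre recombinase that is made in intestinal epithelium and becomes active when 4-OHT is added. All 6 libraries came from organoids with both the floxed genes and the Cre transgene, grown in Advanced DMEM/F12 medium to which R-spondin 1, Noggin, EGF, WNT3A and B27 were added. No library had 4-OHT without floxed genes or without Cre, so recombination of the kinase genes, Cre activity and 4-OHT itself cannot be told apart. The labels do not say whether the 3 libraries of a group came from separate cultures or animals, so the p-values below measure the spread between these libraries.

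Autophagy encloses cytoplasm in a double membrane and delivers it to the lysosome. The ULK kinase complex starts the process, the class III PI3-kinase complex marks the forming membrane (the phagophore), WIPI and ATG2 proteins bind it and feed it lipid, and ubiquitin-like reactions couple ATG12 to ATG5 and ATG8 proteins such as LC3 to the membrane, where they hold cargo receptors. The lysosome degrades what arrives with acid hydrolases, which work at the low pH kept by a proton pump, the V-ATPase. TFEB, TFE3 and MITF are transcription factors that bind short E-box sequences near many lysosomal and autophagy genes, and their activity is set largely by where the protein lies in the cell, which RNA levels do not show. In the intestine, autophagy genes are known for their part in secretory cells and in the defence of the epithelium.

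The E-box bound by the TFEB family has the core CACGTG, and the longer palindrome TCACGTGA contains it. Both read the same on either strand. They were searched as exact matches in promoter windows from RefSeq (build GRCm38.p6, 250 bases before to 50 after a listed start). Of 27025 genes with a window, 1.12% held the palindrome and 8.09% the core. Windows were given for 42 of the 51 genes, and 5 of these (11.9%) held the palindrome and 11 (26.2%) the core. Among autophagy genes with a window the core was found in 4 of 21, and among lysosomal genes in 7 of 18. The stretches below are examples, from both called and uncalled genes, of the matches that are set beside the fold changes further on. Capitals mark each match of the palindrome and of the core, with up to 30 bases on each side, and each is written 5′ to 3′ on the strand of its gene.
Ctsd, chr7:142387889-142387956, minus strand: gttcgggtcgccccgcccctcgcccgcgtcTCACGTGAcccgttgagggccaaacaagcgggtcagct
Mcoln1, chr8:3500418-3500510, plus strand: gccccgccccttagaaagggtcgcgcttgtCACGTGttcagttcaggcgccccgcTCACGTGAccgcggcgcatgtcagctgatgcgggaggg
Gla, chrX:134601163-134601255, minus strand: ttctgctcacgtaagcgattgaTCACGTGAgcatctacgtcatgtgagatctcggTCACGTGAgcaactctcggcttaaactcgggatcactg
Atg3, chr16:45158705-45158794, plus strand: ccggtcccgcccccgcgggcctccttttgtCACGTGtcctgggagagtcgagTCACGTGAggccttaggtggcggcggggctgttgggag
Lamp1, chr8:13159070-13159181, plus strand: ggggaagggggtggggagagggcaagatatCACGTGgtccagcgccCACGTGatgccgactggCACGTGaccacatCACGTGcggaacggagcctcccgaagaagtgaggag
Ctsl, chr13:64370721-64370770, minus strand: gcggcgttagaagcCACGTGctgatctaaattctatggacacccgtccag
Gaa, chr11:119267793-119267858, plus strand: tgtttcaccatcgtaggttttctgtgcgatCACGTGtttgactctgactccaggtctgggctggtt
Atp6v1a, chr16:44139354-44139421, minus strand: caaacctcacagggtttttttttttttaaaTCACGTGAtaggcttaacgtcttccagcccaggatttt
Gla carried the palindrome at 2 places and Lamp1 the core at 4. Of the members not shown, Ctsa also carried the palindrome at 2 places and Atg5, Atg7 and Atg14 the core, and a second core match of Ctsd lay farther from its start. A match is only a stretch of letters: it was not tested for binding in these organoids.

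The labels were checked on the floxed genes. Prkcz had normalized counts of 879.8, 904 and 954 in vehicle 1, 2 and 3 and 287, 265 and 290.3 in 4-OHT 1, 2 and 3, a log2 fold change of -1.70 ± 0.08 (SE, adjusted p = 3.2e-12). Prkci, which encodes the other atypical kinase, gave 3603, 3526 and 3429.7 in vehicle 1, 2 and 3 and 2869, 3105 and 3089 in 4-OHT 1, 2 and 3, a change of -0.22 ± 0.05 (SE, adjusted p = 0.00081). In both, every 4-OHT value lay below every vehicle value, as in 25.3% of all tested rows, and 21% of these rows were called lower. The counts cover whole genes, and the exons between the loxP sites are not given in the sources used here. A transcript that keeps its other exons still counts, so these values do not measure how far either gene was deleted. Libraries held between 15804709 and 26957612 reads. The epithelial markers Epcam, Cdh1, Vil1, Krt8, Krt19 and Cdx2 were present in all libraries, with a summed level of 18250 to 18627 CPM (recovered reads scaled to the library total) with vehicle and 23323 to 24770 with 4-OHT. Krt8 (log2 fold change 0.54) and Krt19 (0.47) held most of that sum. All but Cdx2 were called higher, and Cdx2 was called lower (-0.26, adjusted p = 6.9e-05, limma). Markers of other cells set 4-OHT 2 and 4-OHT 3 apart: 8 Paneth and ileal genes summed to 84.9 and 69.6 CPM there and to 37.6 to 53.7 in the other 4 libraries, and 4 plasma cell genes to 10.4 and 3.52 against at most 0.0519. Of the 8, Defa21, Defa24, Mptx2, Fabp6 and Reg3g were called higher. Mmp7, the most abundant with vehicle, was called lower (-0.28), and Itln1 and Lyz1 were not called. Reg3g had 1, 1 and 0 reads in vehicle 1, 2 and 3 and 1, 363 and 123 in 4-OHT 1, 2 and 3. Defa24 had 1, 6 and 3 reads with vehicle and 4, 145 and 176 with 4-OHT. A fit without 4-OHT 2 and 3 is therefore given beside the main results. In it 4-OHT 1 alone stood for its group and was assumed to vary like the vehicle libraries.

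Of the 51 genes, 50 had a mean of 10 or more normalized counts and could be tested, and 29 of these were higher and 2 lower in 4-OHT at an adjusted p under 0.05 (limma), while 19 were not called. Over all 13210 rows tested, 22.7% were called higher and 21% lower. The tested members all lay at or above a mean of 89.8 (Atg10), and of the 10279 rows at least that high 26.4% were called higher and 24% lower. The 3 values of a group were all above the 3 of the other in 34 of the 51 genes, with 4-OHT on top, and all below in 4, whereas 13 overlapped. The same was true of 26.8% and 25.3% of all tested rows, and of 30.5% and 28% of the more abundant rows. Most rises were small. Of the 50 tested members 6 were called with a rise of at least 0.5 on the log2 scale. The same held for a smaller share of rows: 882 of all 13210 tested (6.68%) and 599 of the 10279 more abundant (5.83%). The median over the 50 genes was 0.18, beside -0.01 over all tested rows. CPM in place of the deposited size factors lowered the median of all rows by 0.072, and the share of calls that were higher fell from 52.0% to 36.9%. Under it the calls of Ulk1, Becn1, Wipi2, Atg5, Atg12, Nbr1, Ctsb, Ctsz, Gusb and Grn were lost.

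**Figure D1:**
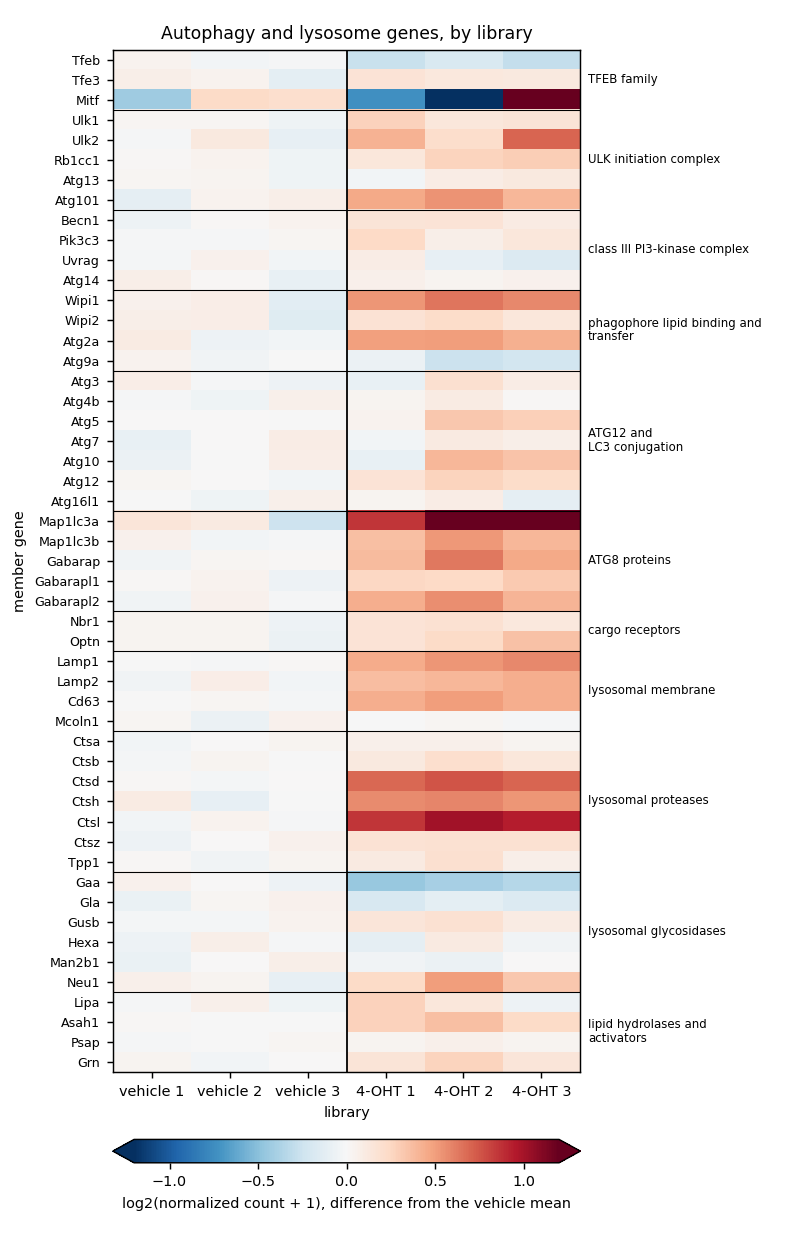
Each row is a gene, grouped by role, and each column a library; colour gives the difference of log2(normalized count + 1) from the vehicle mean, with red above, blue below, and values beyond 1.2 drawn at the ends of the scale. Red fills the 4-OHT columns for the ATG8 proteins and for Lamp1, Lamp2, Cd63, Ctsl, Ctsd and Ctsh, while Tfeb and Gaa are blue in all 3 and Mitf, at 1 to 13 reads a library, varies without pattern.

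The transcription factors of the family did not move together. Tfeb, a master regulator of lysosomal genes, had normalized counts of 580.3, 549.8 and 556 in vehicle 1, 2 and 3 and 467, 495 and 461 in 4-OHT 1, 2 and 3. Every 4-OHT value lay below every vehicle value, a log2 fold change of -0.24 ± 0.07 (SE, adjusted p = 0.011). Leaving out vehicle 1, or 4-OHT 2 and 3 together, ended this call, with changes of -0.22 and -0.27. Tfe3, its close relative, gave 1209, 1187 and 1060.5 in vehicle 1, 2 and 3 and 1288, 1256 and 1249 in 4-OHT 1, 2 and 3. Its 4-OHT values lay just above the highest vehicle value, but the change of 0.14 (95% interval 0.01 to 0.26, adjusted p = 0.075) did not pass. Mitf, best known from pigment cells, had 3, 7 and 4 reads with vehicle and 2, 1 and 13 with 4-OHT. It was under the filter and was not tested.

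Among the genes that start autophagy, 4 of 5 of the ULK complex rose and Atg13 was not called. Atg101, which stabilises ATG13 in the complex, showed the clearest change. Its normalized counts were 891, 991 and 1008 in vehicle 1, 2 and 3 and 1319, 1401 and 1272 in 4-OHT 1, 2 and 3, and the groups did not overlap. The log2 fold change was 0.47 ± 0.06 (SE, adjusted p = 5.3e-06). Of the 2 kinases, Ulk2 changed by 0.45 ± 0.10 (SE, adjusted p = 0.0015) and Ulk1 by 0.19 ± 0.07 (SE, adjusted p = 0.025). Ulk2 had its highest value in 4-OHT 3, with 386, 423 and 366 with vehicle and 524, 453 and 636 with 4-OHT. The call of Ulk1 was lost without vehicle 3 (0.16) or without 4-OHT 1 (0.14). Rb1cc1 (FIP200), the scaffold of the complex, rose by 0.24 ± 0.06 (SE, adjusted p = 0.0043). Atg13, the adaptor between kinase and scaffold, stood at 0.06 (95% interval -0.07 to 0.19, adjusted p = 0.5), with overlapping groups.

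The class III PI3-kinase genes changed little. Only Becn1, the Beclin 1 subunit, was called in the main comparison, with 1463, 1544 and 1568 with vehicle and 1702, 1703 and 1632 with 4-OHT and a log2 fold change of 0.14 ± 0.05 (SE, adjusted p = 0.037). That call was lost in 10 of 17 alternatives, so it lies close to the threshold. Pik3c3, the catalytic subunit (VPS34), stood at 0.15 (95% interval 0.01 to 0.28, adjusted p = 0.072) with its 4-OHT values all above the vehicle values. Uvrag and Atg14, the subunits that set apart the later and earlier forms of the complex, were at -0.06 (adjusted p = 0.62) and 0.05 (adjusted p = 0.73), and both overlapped between groups.

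The proteins that bind and feed the phagophore included larger rises. Wipi1, which binds the lipid made by the PI3-kinase, gave 489.8, 500.1 and 432 in vehicle 1, 2 and 3 and 685, 741 and 707 in 4-OHT 1, 2 and 3. All 3 4-OHT values were above the highest vehicle value, a change in mean from 474 ± 36.6 to 711 ± 28.3 (mean ± SD, n = 3 each). Its log2 fold change was 0.59 ± 0.08 (SE, adjusted p = 3.3e-06), and without 4-OHT 2 and 3 it was 0.53. Atg2a, a lipid transfer protein, had 1605, 1440.0 and 1464 in vehicle 1, 2 and 3 and 2113, 2131 and 2011 in 4-OHT 1, 2 and 3. The groups were again apart, at 0.47 ± 0.05 (SE, adjusted p = 7.7e-07). Wipi2, which recruits the conjugation machinery, rose by 0.18 ± 0.06 (SE, adjusted p = 0.02), a call lost without vehicle 3 (0.11) or without 4-OHT 2 (0.16). Atg9a, the lipid scramblase of the vesicles that seed the membrane, lay the other way: its 4-OHT values, 573, 506 and 518, were all below the vehicle values, and its change of -0.18 (95% interval -0.34 to -0.03, adjusted p = 0.053) just missed the threshold. It passed under 5 alternatives, CPM (-0.26) and the removal of 4-OHT 1 (-0.24) among them.

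Most genes of the conjugation machinery were not called. Atg12, the ubiquitin-like protein coupled to ATG5, had 867, 855 and 832 with vehicle and 955, 1026 and 994 with 4-OHT, with no overlap. It changed by 0.22 ± 0.06 (SE, adjusted p = 0.0058). Atg5 changed by 0.22 ± 0.07 (SE, adjusted p = 0.022), and its value in 4-OHT 1 was close to the vehicle values, with 697, 697 and 692 with vehicle and 718, 871 and 846 with 4-OHT. Without 4-OHT 2 and 3 the change of Atg5 was 0.05, and its call was also lost when any library other than 4-OHT 1 was left out (0.16 to 0.22). The E1-like enzyme gene Atg7 (0.05), the E2-like genes Atg3 (0.06) and Atg10 (0.22), the protease gene Atg4b (0.05) and Atg16l1 (0.01), whose protein directs LC3 to the membrane, overlapped between groups and had adjusted p-values from 0.33 to 0.95. Atg10 was the least abundant gene tested, and its 95% interval ran from -0.14 to 0.57.

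All 5 genes for ATG8 proteins rose. These proteins are anchored in the autophagosome membrane. Map1lc3a (LC3A) changed most of all members: its normalized counts were 452, 443 and 344 in vehicle 1, 2 and 3 and 745, 989.9 and 998 in 4-OHT 1, 2 and 3. The lowest 4-OHT value was above the highest vehicle value, though 4-OHT 1 lay below the other two of its group. The mean went from 413 ± 60.1 to 911 ± 144 (mean ± SD, n = 3 each). On the log2 scale this was 1.14 ± 0.11 (SE, adjusted p = 6.6e-08), and 4-OHT 1 alone gave 0.86. Map1lc3b (LC3B), the form most used as a marker of autophagosomes, rose by 0.43 ± 0.05 (SE, adjusted p = 1.4e-06). Gabarap rose by 0.49 ± 0.06 (SE, adjusted p = 6.2e-07), Gabarapl2 by 0.47 ± 0.06 (SE, adjusted p = 2.1e-06) and Gabarapl1 by 0.27 ± 0.06 (SE, adjusted p = 0.0023). In each of the 5 the groups were apart. No scaling alternative ended any of these calls, and leaving out 4-OHT 2 and 3 ended that of Gabarapl1 alone (0.25, adjusted p = 0.058, limma). The cargo receptor genes were both higher. Optn (optineurin, a receptor for mitochondria and bacteria) had 711, 711 and 661 with vehicle and 777, 813 and 884 with 4-OHT and rose by 0.25 ± 0.07 (SE, adjusted p = 0.0063). Nbr1, a receptor for ubiquitin-tagged aggregates, rose by 0.16 ± 0.05 (SE, adjusted p = 0.0089).

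**Figure D2:**
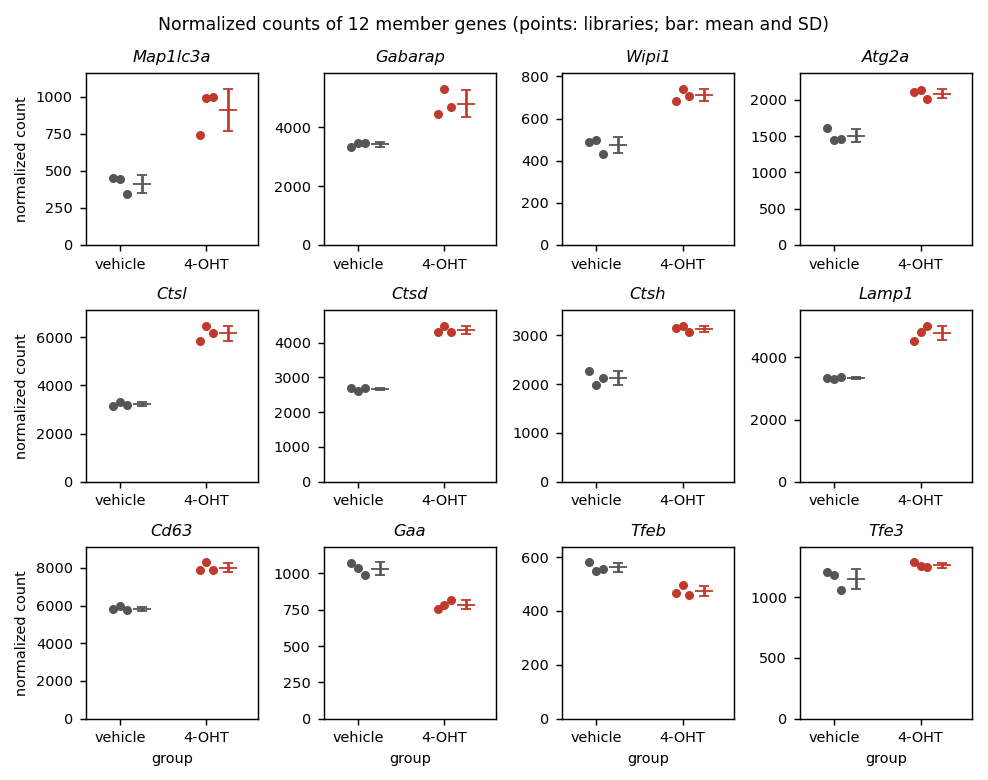
Normalized counts (linear axes from 0) of 12 members, with a point per library and the mean and SD beside the points. The 4-OHT points stand above all vehicle points in the autophagy genes Map1lc3a, Gabarap, Wipi1 and Atg2a and in the lysosomal genes Ctsl, Ctsd, Ctsh, Lamp1 and Cd63, and below them in Gaa and Tfeb; Tfe3 is the closest pair of groups.

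Over the 27 autophagy genes, 17 were higher, none lower and 10 not called (limma), with a median log2 fold change of 0.22. Atg9a was the 1 gene lower at an unadjusted p under 0.05, and it was called lower by edgeR but not by DESeq2. Within each 4-OHT library the median difference from the vehicle mean was 0.17, 0.22 and 0.22 for libraries 1, 2 and 3, with 22, 25 and 24 of 27 genes above it, while the vehicle libraries lay between -0.03 and 0.03. Of all 13210 tested rows, 6600, 6641 and 6583 lay above their vehicle mean in 4-OHT 1, 2 and 3. With 4-OHT 1 alone the median of the autophagy genes was 0.17, beside -7.2e-05 over all tested rows. Over all 13210 rows CPM gave 2218 higher and 3789 lower, at a median of -0.078. For the autophagy genes it gave 11 higher, 1 lower and a median of 0.14. Markers of dividing cells moved with these values: all 8 proliferation genes fell, and their sum was 1854 to 1963 CPM with vehicle and 989 to 1122 with 4-OHT. Of 7 genes of differentiated colonocytes 4 rose, at summed levels of 2440 to 2737 CPM with vehicle and 2639 to 2821 with 4-OHT. Ceacam1, not called at a log2 fold change of 0.00, held most of that sum. The 4 that rose were Car1 (0.92), Guca2a (1.01), Aqp8 (1.28, with overlapping groups) and Car4 (2.64, at 1 to 44 reads a library). Slc26a3 (0.27) and Krt20 (0.24) were not called. The part of this shift in the autophagy values was not tested, and in bulk RNA a change in the number of cells of a type cannot be told apart from a change in RNA per cell.

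The lysosomal membrane genes rose, except for the calcium channel gene Mcoln1. Lamp1, which encodes a main glycoprotein of the lysosomal membrane, had 3326, 3316 and 3384 in vehicle 1, 2 and 3 and 4537, 4835 and 4998 in 4-OHT 1, 2 and 3. The vehicle values lay close together and all 4-OHT values above them, at 0.52 ± 0.05 (SE, adjusted p = 2.9e-08). Cd63, a tetraspanin of late endosomes and lysosomes, changed by 0.46 ± 0.04 (SE, adjusted p = 4.4e-08). Lamp2, needed for fusion and for chaperone-mediated autophagy, changed by 0.40 ± 0.05 (SE, adjusted p = 1.1e-06). The values without 4-OHT 2 and 3 were 0.44 for Lamp1, 0.43 for Cd63 and 0.37 for Lamp2. Mcoln1, with 778, 727 and 793 with vehicle and 765, 777 and 756 with 4-OHT, stood at 0.00 (95% interval -0.13 to 0.13, adjusted p = 0.99).

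The proteases held the largest lysosomal rises, with 5 of 7 called. Ctsl (cathepsin L, a cysteine protease) had normalized counts of 3160.0, 3316 and 3194 in vehicle 1, 2 and 3 and 5826, 6474 and 6177 in 4-OHT 1, 2 and 3. Each 4-OHT value was far above the highest vehicle value. The mean went from 3223 ± 82.3 to 6159 ± 325 (mean ± SD, n = 3 each), and the log2 fold change of 0.93 ± 0.05 (SE, adjusted p = 1.7e-11) had the smallest adjusted p of the 50 genes. Ctsd (cathepsin D, the main aspartic protease of the lysosome) gave 2700.0, 2619.7 and 2682 in vehicle 1, 2 and 3 and 4294, 4488 and 4314 in 4-OHT 1, 2 and 3. The groups were far apart compared with their spread, at 0.71 ± 0.04 (SE, adjusted p = 2.4e-10). Ctsh (cathepsin H, an aminopeptidase) gave 2279, 1993 and 2121 in vehicle 1, 2 and 3 and 3144, 3199 and 3070.1 in 4-OHT 1, 2 and 3. Its groups were apart too, at 0.56 ± 0.05 (SE, adjusted p = 5.1e-08). With 4-OHT 1 alone these changes were 0.85 for Ctsl, 0.69 for Ctsd and 0.56 for Ctsh. Ctsz (cathepsin Z, a carboxypeptidase) rose by 0.18 ± 0.05 (SE, adjusted p = 0.0037) and Ctsb (cathepsin B) by 0.15 ± 0.04 (SE, adjusted p = 0.0066). Ctsa, the carboxypeptidase that protects other lysosomal enzymes, stood at 0.05 (95% interval -0.05 to 0.15, adjusted p = 0.4) and Tpp1, a tripeptidyl peptidase, at 0.13 (95% interval 0.01 to 0.25, adjusted p = 0.086).

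The glycosidases went in both directions. Gaa, the acid alpha-glucosidase that degrades glycogen, had 1074, 1038 and 989 in vehicle 1, 2 and 3 and 752, 784 and 814 in 4-OHT 1, 2 and 3. Every 4-OHT value was lower, at -0.40 ± 0.06 (SE, adjusted p = 3e-05), and no alternative ended this call. Neu1, a sialidase, rose by 0.35 ± 0.06 (SE, adjusted p = 0.0001) and Gusb (beta-glucuronidase) by 0.14 ± 0.05 (SE, adjusted p = 0.019). The call of Gusb was lost without vehicle 1 or vehicle 2 (0.13 each) or 4-OHT 2 (0.12). Gla (-0.16), Hexa (-0.02) and Man2b1 (-0.04), which remove galactose, hexosamine and mannose residues, were not called. The 4-OHT values of Gla were nevertheless all below its vehicle values, with 269, 289 and 294 with vehicle and 249, 261 and 254 with 4-OHT.

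Of the genes for lipid breakdown and its helpers, Asah1 and Grn rose. Asah1 (acid ceramidase) had 2946, 2913 and 2919 with vehicle and 3555, 3749 and 3440.1 with 4-OHT, with a narrow vehicle range and no overlap, at 0.29 ± 0.05 (SE, adjusted p = 4e-05). Grn, which encodes progranulin, rose by 0.19 ± 0.05 (SE, adjusted p = 0.0047). Lipa, the acid lipase for cholesteryl esters, overlapped between groups at 0.12 (95% interval -0.07 to 0.31, adjusted p = 0.32). Psap, the precursor of the saposins that help sphingolipid hydrolases, was at 0.04 (95% interval -0.04 to 0.13, adjusted p = 0.42).

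Over the 21 lysosomal genes, 12 were higher, 1 lower and 8 not called, with a median log2 fold change of 0.15. The 4-OHT libraries 1, 2 and 3 had median differences of 0.15, 0.19 and 0.13 from the vehicle mean, with 16, 18 and 16 of 21 genes above it. Of all 13210 tested rows, 6600, 6641 and 6583 lay above their vehicle mean in the same libraries. With 4-OHT 1 alone the median of the lysosomal genes was 0.15. Over all 13210 rows CPM gave 2218 higher and 3789 lower, at a median of -0.078. For the lysosomal genes it gave 8 higher, 1 lower and a median of 0.080. Macrophages express many lysosomal genes at high levels, so their markers are given beside these values: the 8 macrophage genes summed to 12.7 to 15.9 CPM with vehicle and 14.5 to 18.6 with 4-OHT. Of these, Adgre1, C1qb and C1qc were at 0 reads in all vehicle libraries and in 4-OHT 1, Mrc1 and Csf1r were called higher, and Cd68, itself a lysosomal protein, was called lower. Summed fibroblast markers were 0.297 to 1.08 CPM with vehicle and 0.415, 0.868 and 9.71 in 4-OHT 1, 2 and 3. Goblet cell markers summed to 370 to 459 CPM with vehicle and 386 to 433 with 4-OHT. Of the 6 goblet genes, Clca1 (log2 fold change 1.28), Agr2 (0.47), Tff3 (0.41) and Spdef (0.34) were called higher and Fcgbp (-0.32) lower. Muc2 (-0.16), the most abundant of them, was not called. The fall of the proliferation genes moved with the lysosomal values as well, and the part of these cell types was not tested.

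**Figure D3:**
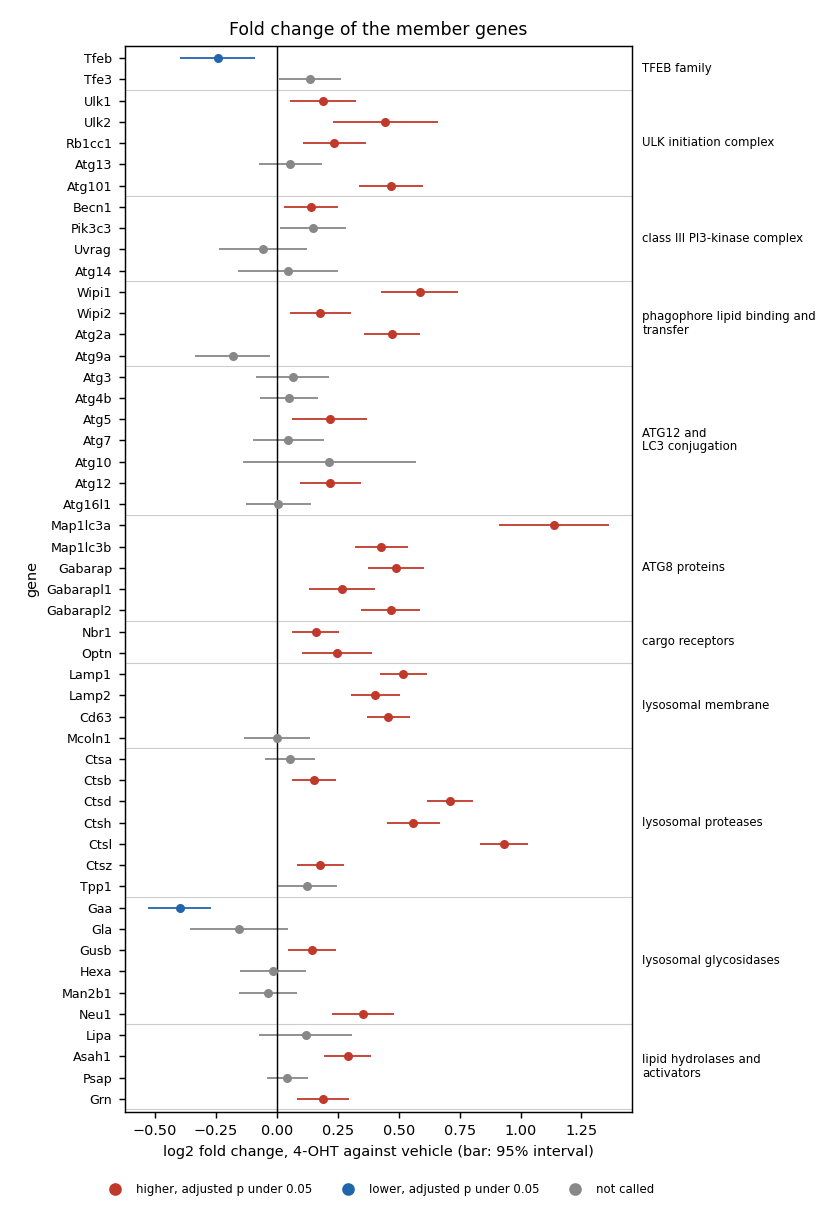
Log2 fold change of the 50 tested members (4-OHT against vehicle), with 95% intervals as bars and colour by call at an adjusted p of 0.05. Map1lc3a, Ctsl and Ctsd lie farthest to the right. Gaa and Tfeb are the genes called lower. The PI3-kinase and conjugation genes lie between -0.06 (Uvrag) and 0.22 (Atg12).

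The autophagy and lysosomal genes thus gave 63% and 57.1% called higher, and the difference between the arms was not tested. Within both arms the rises were uneven. The ATG8 genes (5 of 5), cargo receptors (2 of 2), ULK complex (4 of 5) and phagophore genes (3 of 4) lay above the 22.7% of all rows. So did the lysosomal membrane (3 of 4), proteases (5 of 7) and lipid hydrolases and activators (2 of 4). The PI3-kinase complex (1 of 4), conjugation genes (2 of 7) and glycosidases (2 of 6) lay nearer to it. Of the 2 tested TFEB family genes, outside both arms, 0 were called higher and 1 lower. These groups are small. The more abundant members tended to be those with the larger rises. Across the 50 genes the Spearman correlation of fold change with mean normalized count, not divided by gene length, was 0.38, beside 0.13 over 12902 rows. With exon length it was -0.30, beside -0.12. This describes genes that share the same 6 libraries, with no test. Per kilobase of exon the most abundant member in vehicle was Psap, at a mean of 4359 normalized counts, followed by Ctsz (2107), Gabarap (1854), Cd63 (1586) and Lamp1 (1249).

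The E-box matches shown above lay before genes that were called and genes that were not. Of the 5 members with the palindrome, Ctsd rose (0.71), and Mcoln1 (0.00), Ctsa (0.05), Atg3 (0.06) and Gla (-0.16) were not called. Of the 6 with the core alone, Ctsl (0.93), Lamp1 (0.52) and Atg5 (0.22) rose, Gaa (-0.40) fell, and Atg7 (0.05) and Atg14 (0.05) were not called. The core was thus found in 4 of 22 higher members with a window (18.2%) and in 6 of 17 that were not called (35.3%). The share of all genes was 8.09%. No window was given for Rb1cc1, Becn1, Pik3c3, Atg12, Atg16l1, Map1lc3a, Ctsb, Ctsh and Asah1.

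A further 131 genes of the same pathways were grouped in 6 lists, and of the 130 tested 42 were higher (32.3%) and 22 lower (16.9%), beside 22.7% and 21% of all tested rows and 26.4% and 24% of the rows as abundant as the members. The genes of the V-ATPase, the pump that acidifies the lysosome and other compartments, gave 14 of 16 higher and none lower (limma; none at an unadjusted p under 0.05 and none by edgeR or DESeq2), and their median log2 fold change was 0.40. Atp6v0e, a small subunit of the membrane sector, had 1859, 1813 and 1742 in vehicle 1, 2 and 3 and 2799, 2939 and 2718 in 4-OHT 1, 2 and 3. All 4-OHT values were above all vehicle values, at 0.64 ± 0.05 (SE, adjusted p = 4.7e-09). Of 11 V-ATPase genes with a promoter window, 3 (27.3%) held the palindrome: Atp6v0e itself, Atp6v0d1, which rose by 0.22 ± 0.06 (SE, adjusted p = 0.0075), and Atp6v1a, whose stretch is shown above and which rose by 0.16 ± 0.05 (SE, adjusted p = 0.013). In the list of other lysosomal membrane and enzyme-sorting genes, 6 of 16 with a window (37.5%) held the palindrome. Of these Cln3 rose (log2 fold change 0.28), and Igf2r (-0.33), Gnptg (-0.24) and Vps16 (-0.21) fell. Clcn7 (-0.05) and Vps33a (-0.08) were not called. Among the V-ATPase genes Atp6v0a1 and Atp6v1h were not called, at 0.04 (adjusted p = 0.53) and 0.09 (adjusted p = 0.26). In 4-OHT 1 the median difference of the V-ATPase genes from the vehicle mean was 0.35. With CPM 11 of them were called higher, beside 2218 of all 13210 rows. V-ATPase subunits serve other cell types and compartments too, and the fall of the proliferation markers moved with them as it did with the members. The part of that shift was not tested.

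The 30 other acid hydrolases, in contrast, gave 6 higher and 7 lower, with a median of -0.04. Aga, which cleaves sugar chains from asparagine, rose most among those called, from 265, 238 and 275 with vehicle and 381, 380.4 and 343 with 4-OHT, by 0.51 ± 0.10 (SE, adjusted p = 0.00023). Arsa, the sulfatase for sulfatide, fell most, with 407, 464 and 432 with vehicle and 263, 340.0 and 338 with 4-OHT, a change of -0.48 ± 0.10 (SE, adjusted p = 0.00077). Both shares, 20% and 23.3%, were near those of all rows (22.7% and 21%). In 4-OHT 1 the median difference of these hydrolases from the vehicle mean was -0.01. The difference between the V-ATPase list and this list was not tested.

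**Figure D4:**
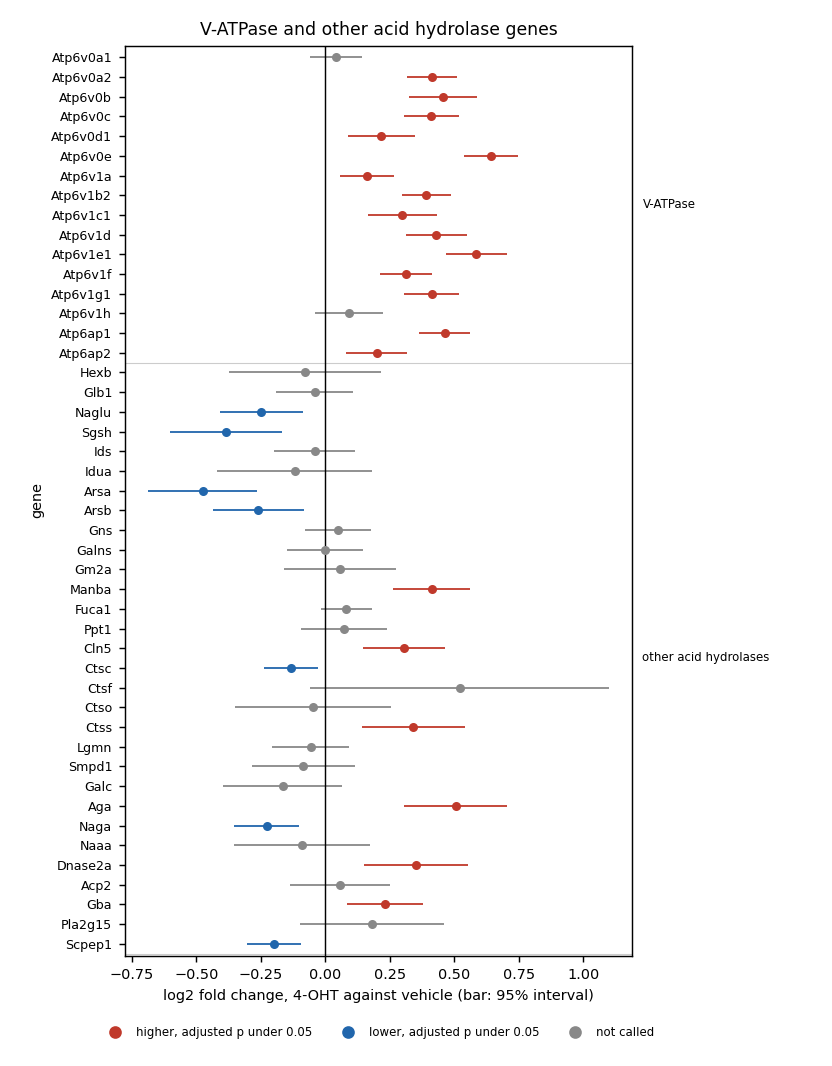
Log2 fold changes with 95% intervals for 16 V-ATPase genes (top) and 30 other acid hydrolases (bottom), coloured by call. The pump genes lie to the right of 0, all but Atp6v0a1 and Atp6v1h past the threshold, while the hydrolases scatter on both sides.

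The other lists held calls in both directions. The shares called higher of the other autophagy genes (27.3%), the sorting genes (22.7%) and the nutrient-sensing genes (20.7%) were near the 22.7% of all tested rows, and that of the other cargo receptors was 45.5%. The shares called lower were 9.09%, 31.8%, 10.3% and 27.3% in the same order, beside 21% of all tested rows. Of 22 other autophagy genes 6 rose and 2 fell, at a median of 0.00. Vamp8, a SNARE that fuses autophagosomes with lysosomes, rose by 0.69 ± 0.05 (SE, adjusted p = 1.7e-09) and Atg2b, the paralog of Atg2a, went the other way at -0.56 ± 0.06 (SE, adjusted p = 3.9e-07). Of 11 other cargo receptors 5 rose and 3 fell: Calcoco1, a receptor for the endoplasmic reticulum, rose by 0.53 ± 0.07 (SE, adjusted p = 9.9e-06), and Bnip3, a receptor for mitochondria that is also a hypoxia-responsive gene, had 1018, 975 and 886 with vehicle and 371, 606 and 463 with 4-OHT, a change of -1.02 ± 0.12 (SE, adjusted p = 6.2e-07). Sqstm1 (p62) was not called, at 0.05 (adjusted p = 0.57). Of 22 further membrane and enzyme-sorting genes 5 rose and 7 fell. Vps41, a subunit of the HOPS tethering complex, rose by 0.40 ± 0.06 (SE, adjusted p = 7.4e-06) and Tmem175, a lysosomal ion channel, fell most, at -0.39 ± 0.13 (SE, adjusted p = 0.019), a call lost without vehicle 2, vehicle 3 or 4-OHT 1 (-0.39, -0.34 and -0.27). Of 29 tested genes of mTORC1, AMPK and nutrient sensing 6 rose and 3 fell. Rragc, a Rag GTPase that brings mTORC1 to the lysosome, rose by 0.36 ± 0.06 (SE, adjusted p = 4.9e-05) and Deptor, an inhibitor of mTOR, changed by -0.55 ± 0.06 (SE, adjusted p = 1.6e-07). With 4-OHT 1 alone the counts of higher and lower genes were 6 and 1, 3 and 2, 2 and 5, and 4 and 2 in these 4 lists.

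**Figure D5:**
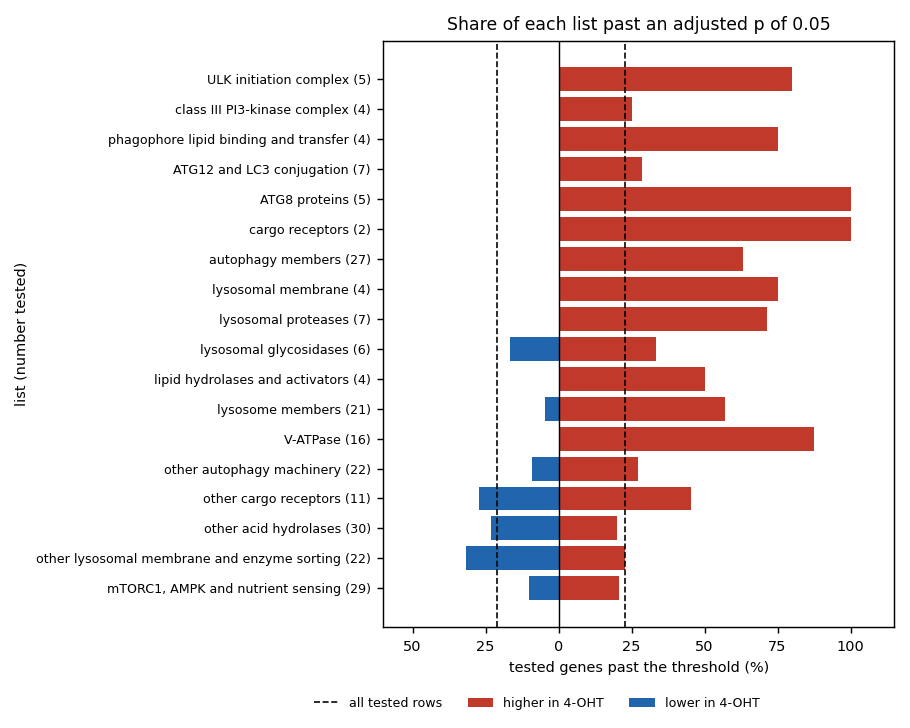
Share of tested genes called higher (to the right) and lower (to the left) in each role group and pathway list, with the number tested in brackets; dashed lines mark the shares of all tested rows, 22.7% higher and 21% lower. The bars of the ATG8 proteins, cargo receptors and V-ATPase reach farthest to the right.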

How the data were processed

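The 6 RNA-seq libraries of mouse colonic organoids were 3 given 4-OHT and 3 given vehicle, and grouped by the sample labels. The deposited values are normalized counts, a signal that the authors made by dividing the reads of each gene by a size factor per library, without correction for gene length. The labels list STAR, DESeq2 and the builds GRCm39 and mm39 without versions or roles; counting tool, annotation and strand setting are not given in the sources used here, so reads of a gene and of an overlapping or antisense gene cannot be told apart. All values (100%) were whole reads times a constant, within 0.1 reads, and library totals of 15804709 to 26957612 reads were recovered; more reads mean less counting error. The table had 25067 rows, 1754 of them at 0 throughout. All pairs of libraries within a group differed by more than sampling noise.

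limma-trend (limma 3.58.1, R 4.3.3) was run on log2(normalized count + 1) for the 13210 rows with a mean of at least 10, with Benjamini-Hochberg adjustment over all of them and a threshold of 0.05. A fold change on this scale understates that of rare genes. Errors are SD for means and SE for fold changes. The script was tested on simulated data with 200 changed genes. edgeR 4.0.16 and DESeq2 1.42.0 were run on the recovered reads as alternatives, and 17 alternatives were run in all, of which CPM from the recovered reads was chosen after seeing the data. Values in every library are given for called members with an absolute log2 fold change of at least 0.5, for the TFEB family and for the member with the smallest adjusted p of each role; of other lists, the largest called rise and fall. Values given for Gabarap, Cd63, Ulk2, Atg5, Atg9a, Mcoln1, Gla, Atp6v0d1, Atp6v1a and Sqstm1 beyond that were chosen after their values were seen. So were those for the sorting genes with the palindrome and for single epithelial, Paneth, ileal, goblet and colonocyte markers. The members and lists were chosen with earlier results of these data known. Levels per kilobase used merged exons of GENCODE vM21. Promoter windows were from RefSeq (GRCm38.p6), an older build than the labels name, and 161 of 180 windows ended inside a transcript of their gene. Protein sequences were not used here.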

Additional observations from a re-analysis of the deposited data

How the results depend on the processing

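Of the 29 members called higher, 16 kept that call under all 17 alternatives and 13 lost it under at least 1 (46 of 493 values), without a change of sign. Gaa stayed lower under all, and Tfeb lost its call without vehicle 1 and without 4-OHT 2 and 3. Of the 19 not called, Atg9a passed in 5 alternatives and Pik3c3 in 2 (without 4-OHT 2, and without 4-OHT 2 and 3). The 13 that lost a higher call were Ulk1, Rb1cc1, Becn1, Wipi2, Atg5, Atg12, Gabarapl1, Nbr1, Optn, Ctsb, Ctsz, Gusb and Grn. Leaving out 1 library ended the calls of Ulk1, Becn1 (0.11 without vehicle 1, 0.15 without vehicle 2, 0.13 without 4-OHT 1 or 4-OHT 2), Wipi2, Atg5, Gusb and Tfeb, and brought that of Atg9a without 4-OHT 1 (-0.24) and of Pik3c3 without 4-OHT 2 (0.19). The cause of each change was not tested, and the fits that left libraries out also rested on fewer of them.

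Without 4-OHT 2 and 3 (a single 4-OHT library), 3569 genes were called, 1858 higher and 1711 lower, against 5765, 2997 and 2768; autophagy members called fell to 10, all higher, at a median of 0.17, and TFEB family calls to 0. Other autophagy genes lower became 1, cargo receptors higher 3, other acid hydrolases 2 higher and 4 lower, and sorting genes higher 2. CPM, which lowers the median of all genes by 0.072, gave 2218 higher and 3789 lower; autophagy members were 11 higher and 1 lower at a median of 0.14, lysosomal members had a median of 0.080, other autophagy genes were 5 lower, cargo receptors 3 higher, and mTORC1 and AMPK genes 3 higher and 6 lower. Quantile normalization also gave 3 higher in that list. Atg9a made the count of lower autophagy members 1 with a mean of at least 50, with TMM factors, with edgeR and with CPM. Other autophagy genes lower became 1 without a filter, with DESeq2 and with the replicate block, since Pik3r4 was no longer called. edgeR called 5780 genes and DESeq2 5208. Leaving out 1 library at a time gave 4939 to 5630 calls, autophagy members higher 14 to 16 and lower 0 to 1, lysosomal members higher 11 to 12, TFEB family calls 0 (without vehicle 1) to 1, other autophagy genes lower 1 to 2 and sorting genes lower 3 (without vehicle 2) to 6, with 4 without vehicle 3 or 4-OHT 1.

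The libraries carry replicate numbers, but same-numbered libraries did not deviate together (r of -0.0074, 0.030 and -0.020 over genes). Pairs with different numbers gave -0.048 to 0.047. These values do not show whether same-numbered libraries shared a culture or animal, which the labels do not say. The replicate block gave 5637 calls, and of the members Becn1 was no longer called under it.

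Signs turned in 13 members that were not called. With CPM the log2 fold changes were -0.017 for Atg13, -0.026 for Atg14, -0.0086 for Atg3, -0.024 for Atg4b, -0.026 for Atg7, -0.067 for Atg16l1, -0.072 for Mcoln1, -0.02 for Ctsa and -0.031 for Psap. Without 4-OHT 2 and 3 they were -0.031 for Atg13, 0.091 for Uvrag, -0.091 for Atg3, -0.033 for Atg7, -0.090 for Atg10 and -0.0019 for Mcoln1. Leaving out 1 library at a time gave -0.0013 to 0.14 for Atg3, -0.034 to 0.061 for Atg16l1, -0.036 to 0.026 for Mcoln1, -0.076 to 0.03 for Hexa and -0.076 to 0.0015 for Man2b1. TMM factors gave -0.0020 for Mcoln1. Quantile normalization gave -0.00046 for Mcoln1 and -0.093 for Psap. By edgeR Mcoln1 was at -0.0013.

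Depth limits the less abundant members: among those not called, the 95% intervals were widest for Atg10, Atg14, Gla and Lipa, which were also the least abundant in normalized counts.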
